A study of Mus musculus with 2 samples.

Results

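Titin (Ttn), the titin cap protein telethonin (Tcap), myotilin (Myot), myospryn (Cmya5), the myosin-binding proteins C of slow type (Mybpc1) and fast type (Mybpc2), desmin (Des) and the kelch protein Klhl41 build or anchor the scaffold of striated muscle, and they were followed here in mouse fat. These 8 genes were chosen by their symbols in the authors' analysed table, which writes Kbtbd10 for Klhl41, out of 800 genes that the table names with a single symbol. They are represented by 10 probes of the 35556 on the array, of which 3 belong to Ttn. A probe here is a transcript cluster, a group of oligonucleotides summarised to a single signal. The authors' table lists only probes that were higher in the transgenic sample, the lowest fold ratio in it being 1.5. Membership therefore fixed the direction of every difference below, and the differences are given as a description with no test.

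The study set inguinal white fat, a subcutaneous depot of the groin, of H4-TG transgenic male mice against that of wild-type (WT) male mice. The animals of both groups were about 8 weeks old, ate normal chow and lived at room temperature. RNA from 4 animals of a genotype was combined and hybridised to 1 array, so there is 1 WT array and 1 H4-TG array, no spread between replicates and no p-value. The labels name neither what H4 is, nor the promoter that drives the transgene, nor the strain. Because RNA was pooled, the values do not show whether a difference was shared by all 4 animals of a pool or came from some of them.

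In striated muscle, the Z-disc is the lattice that bounds each sarcomere and ties the ends of the actin filaments together. Titin, a giant elastic protein, runs from the Z-disc to the M-band at the middle of the sarcomere, and its Z-disc end is capped by telethonin. Myosin-binding proteins C sit in stripes on the thick filament and modulate the interaction of myosin with actin, whereas desmin filaments link neighbouring Z-discs to each other, to the cell membrane and to the nucleus. Fat cells have no sarcomeres. A fat depot can hold other cells that make desmin, such as the smooth muscle of its vessels, and skeletal muscle fibres lie close to the inguinal depot.

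From the RefSeq table of promoters (GRCm38.p6, 250 bases before the start of transcription and 50 after it), 6 of the 8 genes were examined. The promoters of Tcap and Myot, the members with the smallest and largest differences by brightest probe, were not examined. The motif counts below leave both out and say nothing about them. The promoters of the members with the largest and smallest differences among these 6, and those holding a MEF2 motif, are shown for comparison. That all were higher in H4-TG follows from their choice. The 8 members, with Tcap and Myot included, lie on 7 chromosomes. Capitals mark every match, on either strand, to the E-box CANNTG, which myogenic factors such as MyoD bind, the MEF2 motif, the MCAT motif CATTCC of TEAD factors, the CArG box of serum response factor and the TATA sequence TATAAA. Ttn lies at chr2:76982498-76982797 on the minus strand, Klhl41 at chr2:69669870-69670169 on the plus strand, Mybpc2 at chr7:44524620-44524919 on the minus strand and Des at chr1:75360042-75360341 on the plus strand. Each is written in the direction of its gene.
Ttn: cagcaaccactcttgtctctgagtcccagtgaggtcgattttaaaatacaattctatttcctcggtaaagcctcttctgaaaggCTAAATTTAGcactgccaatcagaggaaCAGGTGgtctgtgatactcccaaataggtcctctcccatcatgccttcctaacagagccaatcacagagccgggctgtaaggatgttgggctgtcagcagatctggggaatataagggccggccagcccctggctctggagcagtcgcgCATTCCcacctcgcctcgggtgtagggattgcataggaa
Klhl41: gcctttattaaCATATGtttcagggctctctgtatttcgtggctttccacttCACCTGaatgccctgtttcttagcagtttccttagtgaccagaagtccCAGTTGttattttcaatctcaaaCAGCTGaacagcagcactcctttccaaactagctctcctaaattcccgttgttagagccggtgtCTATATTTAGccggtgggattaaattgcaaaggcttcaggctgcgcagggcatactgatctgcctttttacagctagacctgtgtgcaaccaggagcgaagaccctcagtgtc
Mybpc2: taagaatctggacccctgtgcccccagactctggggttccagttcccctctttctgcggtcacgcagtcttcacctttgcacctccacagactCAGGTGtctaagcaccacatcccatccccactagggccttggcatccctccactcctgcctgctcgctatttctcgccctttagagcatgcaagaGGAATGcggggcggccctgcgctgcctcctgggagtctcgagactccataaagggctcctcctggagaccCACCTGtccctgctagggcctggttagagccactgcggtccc
Des: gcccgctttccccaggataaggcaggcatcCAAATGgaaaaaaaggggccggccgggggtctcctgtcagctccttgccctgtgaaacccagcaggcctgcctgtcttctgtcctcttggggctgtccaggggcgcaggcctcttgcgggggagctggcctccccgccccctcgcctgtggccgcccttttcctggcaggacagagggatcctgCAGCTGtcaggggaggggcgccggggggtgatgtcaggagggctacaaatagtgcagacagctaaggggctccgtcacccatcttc

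A MEF2 match was found in 2 of the 6 promoters. In Ttn it reads CTAAATTTAG and begins 166 bases before the start, and in Klhl41 it reads CTATATTTAG and begins 63 bases before it. Of all 32851 promoters in the RefSeq table, 3.19% hold a MEF2 match. All 6 promoters held an E-box, as did 72.3% of all promoters. Klhl41 had 4 E-boxes, Mybpc1 had 3, Mybpc2 and Des had 2 each, and Ttn and Cmya5 had 1 each. An MCAT match stood in Ttn and Mybpc2, against 14.7% of all promoters. No CArG box and no TATAAA was found in any of the 6, against 1.63% and 13.6% of all promoters. No matches overlapped. A match is only a run of letters, and none was shown to be bound in these samples.

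With each gene represented by its brightest probe, 6 of the 8 had a signal in H4-TG that was 2-fold that in WT or more. Over all probes of the array, 0.892% were higher by that size (4.27% by 1.5-fold, the limit of the authors' table, which all 8 passed by choice). Over probes at or above the signal minimum, a mean of both arrays of 6.31 or the median over all probes, the share was 0.63%; 7 of the 8 genes were above that minimum, 5 of them only through their H4-TG signal, since their WT signal was below it, so the minimum says nothing about the members' count. Among the 800 named genes, which the authors' table had already restricted to the higher side, it was 15%. The members were chosen from that table with their values known, so their count is not read against these shares. The median difference over the 8 genes, H4-TG minus WT, was 2.15 on the log2 scale, or 4.45-fold. Over the 800 named genes it was 0.71, or 1.64-fold, and over all 35556 probes it was -0.01, with quartiles of -0.24 and 0.20. Of the 10 member probes, 7 stood among the 100 largest positive differences of the 35556 probes. Since the members were chosen with their values known, this count is a description only. By brightest probe, the 8 genes fell into a set of 6 with differences from 1.99 to 3.01 and a pair, Des and Tcap, at 0.77 and 0.66.

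**Figure D1:**
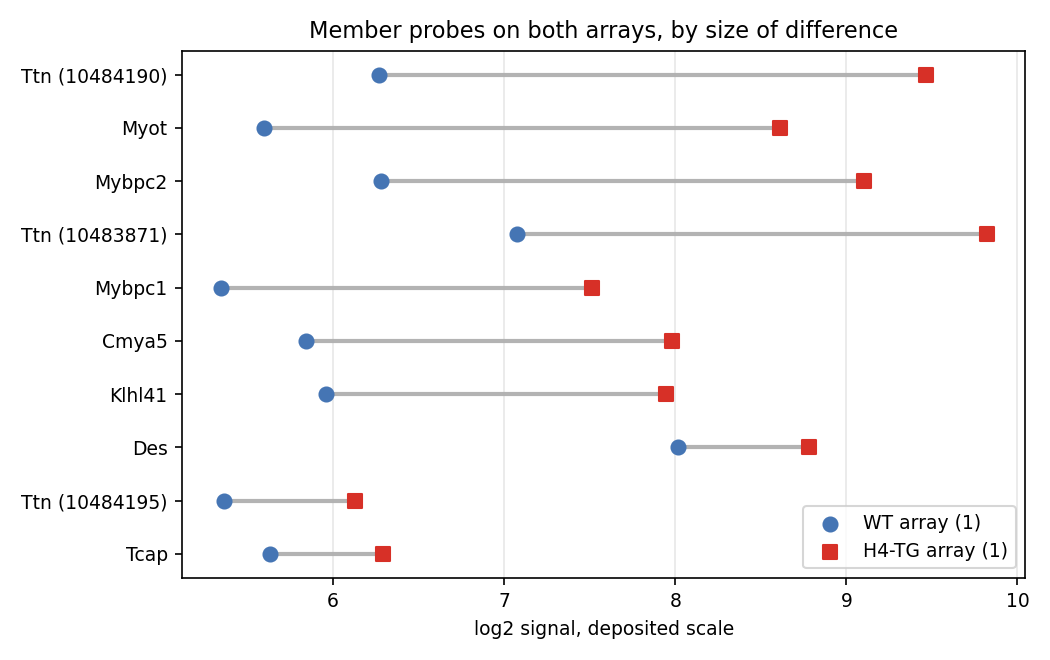
Log2 signal on the deposited scale (horizontal axis) of each of the 10 member probes in WT (circles) and H4-TG (squares), 1 array each, ordered by difference. Every square lies to the right of its circle, as the choice of members requires; the lines are long for 7 probes and short for Des, Tcap and Ttn probe 10484195.

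Titin is measured by the most probes. Probe 10483871, which the authors' table places on chromosome 2 from 76542041 to 76820604, covers the whole gene, a span of 278564 bases. Its log2 signal was 7.08 in WT and 9.82 in H4-TG, a difference of 2.74 or 6.70-fold. The table states no genome build for these positions, and they differ from those of GRCm38.

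The other two Ttn probes are short and lie inside that span. Probe 10484190 covers 850 bases, from 76674022 to 76674871. It read 6.27 on WT and 9.47 on H4-TG, so it was 9.17-fold higher, which was rank 4 among all differences on the array. Counted from the 5′ end of the long probe (Ttn is read from the minus strand), it lies 145733 to 146582 bases downstream.

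Probe 10484195 covers 1542 bases, from 76752234 to 76753775, and lies nearer the 5′ end, 66829 to 68370 bases downstream. It read 5.36 on WT and 6.13 on H4-TG, a difference of 0.76 or 1.70-fold. The authors' table annotates it with a single Ensembl transcript, and the whole-gene probe with a RefSeq transcript and Ensembl transcripts. Probe 10484190, with the largest difference of the Ttn probes, has no RefSeq transcript either. The mean of the signals of probe 10484195 on both arrays was below the signal minimum, whereas the other Ttn probes were above it.

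The 3 Ttn probes therefore spanned 2.44 in log2 difference within a single gene. This width comes from probe 10484195, since the other 2 probes differed by 0.45. Probe 10484195 was below the signal minimum. Of the others, probe 10484190 passed the minimum only through its H4-TG signal, since its WT signal of 6.27 was below it. The minimum therefore says nothing about this spread. Klhl41 and Myot, the lowest and highest of the 6 strongly different genes, were 1.03 apart, a range that leaves out Des and Tcap. The Ttn probes share the same RNA and are not replicates. Ttn makes many splice forms in muscle, and the deposited values do not separate them.

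**Figure D2:**
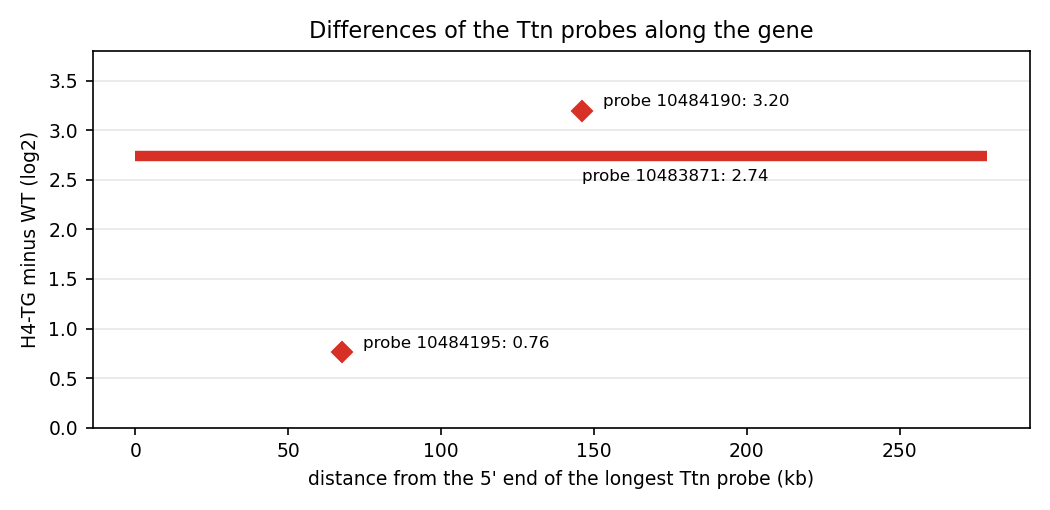
Difference between the H4-TG and WT arrays (log2, vertical axis) of the 3 Ttn probes against distance from the 5′ end of the longest probe in kilobases. The bar is the probe that spans the gene, at 2.74; the diamonds are the short probes, at 3.20 and 0.76.

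Tcap, the partner that holds the Z-disc end of titin, had the smallest difference of the 8. Its signal was 5.63 on WT and 6.29 on H4-TG, a difference of 0.66 or 1.58-fold, close to the lowest ratio that the authors' table lists. Ttn and Tcap, whose proteins bind each other, so differed by 2.74 and 0.66 on the same pair of arrays. The mean of the Tcap signals on both arrays was below the signal minimum, whereas the whole-gene Ttn probe was above it. This contrast therefore sets a dim probe against a brighter one.

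Myotilin, a Z-disc protein that binds alpha-actinin and filamin, had the largest difference of the 8 by brightest probe. Its signal was 5.60 on WT and 8.61 on H4-TG, or 8.08-fold higher, rank 9 of all probes. Myospryn, which associates with desmin and alpha-actinin at the Z-disc periphery and the costamere, read 5.84 and 7.98. This is a difference of 2.14, or 4.39-fold. Klhl41, a kelch protein that stabilises nebulin and takes part in the assembly of myofibrils, read 5.96 on WT and 7.95 on H4-TG, or 3.96-fold higher. Its probe lies on chromosome 2 from 69508264 to 69521653 in the authors' table.

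The myosin-binding proteins C were both in the strongly different set. Mybpc2, the form of fast fibres, read 6.28 on WT and 9.10 on H4-TG, a difference of 2.82 or 7.06-fold. Mybpc1, named for slow muscle although fast fibres express it too, read 5.34 and 7.52, a difference of 2.17 or 4.51-fold. The difference of the fast form exceeded that of the slow form by 0.65. With 1 array per genotype it is not known whether such a gap exceeds the error of an array. The cardiac form, Mybpc3, was not in the authors' table and has no value here.

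Desmin had a signal of 8.02 on WT and 8.78 on H4-TG. The difference was 0.77, or 1.70-fold, and its probe lies on chromosome 1 from 75356919 to 75364291 in the authors' table. Desmin is made by smooth as well as striated muscle. None of 6 smooth muscle markers (Acta2, Myh11, Cnn1, Tagln, Smtn and Lmod1) was in the authors' table, and they have no value here.

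**Figure D3:**
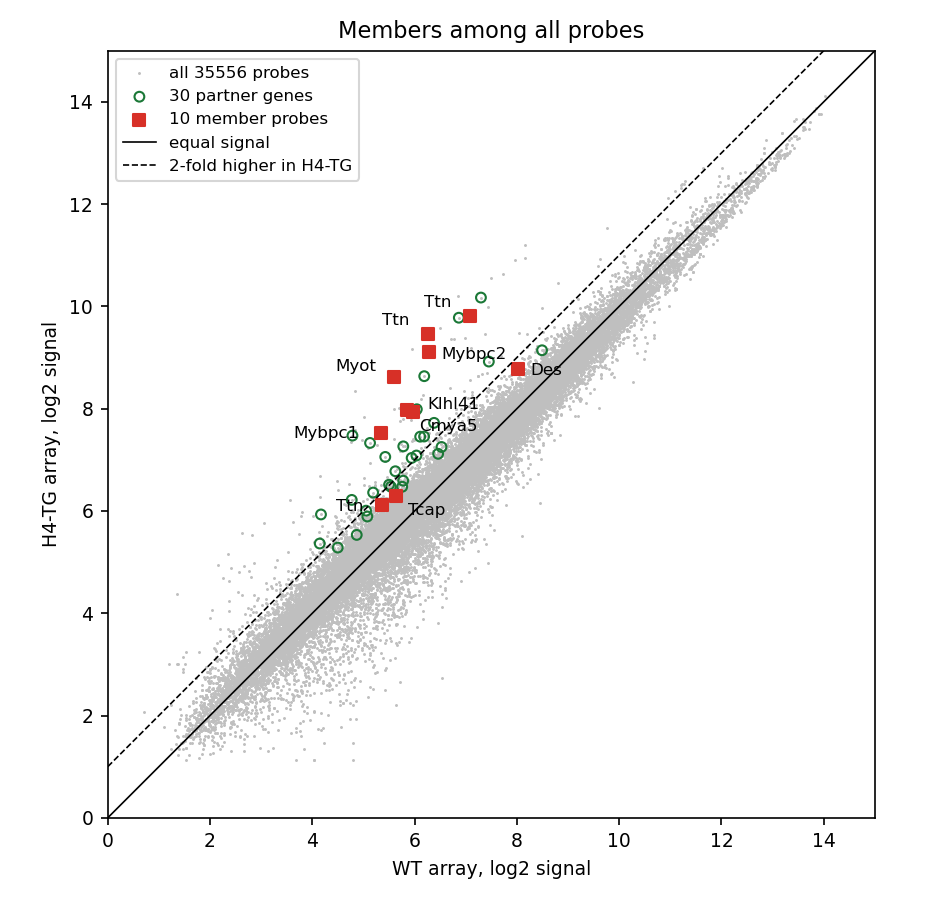
Log2 signal on the WT array (horizontal) and the H4-TG array (vertical) of all 35556 probes (grey), 30 partner genes of the scaffold (open circles) and the 10 member probes (red squares). Of the member probes, 7 lie above the dashed line of a 2-fold difference; Des, Tcap and 1 Ttn probe lie between it and the line of equal signal.

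The members were set beside 72 further genes of the same structures, in 5 lists by role. Of these, 30 were in the authors' table with a single symbol, and 20 of the 30 reached 2-fold. Since the table lists only probes from about 1.5-fold upwards, that share is not read against the array as a whole; among the 800 named genes of the same table it was 15%, and the lists were chosen with earlier results known. The remaining 42 have no value here, and no gene lower in H4-TG could be named, so the lists cannot show a partner that was lower. The median over the 30 was 1.19, or 2.29-fold, compared with 2.15 over the 8 members, whose choice rests on these values.

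The Z-disc list, the longest, had 13 of 26 members listed, of which 11 reached 2-fold. Nebulin (Neb), the ruler of the thin filament that Klhl41 stabilises, read 6.87 on WT and 9.78 on H4-TG and was 7.54-fold higher. The fast-fibre alpha-actinin Actn3, which crosslinks actin at the Z-disc, was 7.34-fold higher (7.30 and 10.17), and Actn2, present in all fibres, 2.80-fold (5.78 and 7.26). The calcineurin-binding myozenins differed among themselves. Myoz1 was 5.45-fold higher (6.19 and 8.64), Myoz2 2.33-fold (4.15 and 5.36) and Myoz3 1.65-fold (6.53 and 7.25). The actin-binding Xirp2 was 6.45-fold and the nebulin-binding myopalladin Mypn 3.39-fold higher; the probes of both, and of Myoz2, were below the signal minimum. Pdlim3, Nrap, Ldb3 and filamin C (Flnc) lay between 2.14-fold and 2.54-fold. Fhl1, a LIM protein also made outside muscle, had the smallest difference on the list at 1.57-fold (8.49 and 9.14).

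Partners of titin at the I-band and the M-band had smaller differences than the whole-gene Ttn probe. Of 16 genes 6 were listed, and 4 reached 2-fold. The M-band crosslinkers Myom2 and Myom1 were 3.10-fold (5.43 and 7.06) and 2.22-fold (5.62 and 6.78) higher. Ankrd23, an ankyrin repeat protein that binds titin, was 2.77-fold higher (7.45 and 8.92), and its relative Ankrd2 1.64-fold. The ubiquitin ligase Trim63, which binds titin near the M-band, was 2.72-fold higher (4.77 and 6.22). Of those named, all except Ankrd23 were below the signal minimum.

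Of 6 genes for myosin-binding proteins and myosin chaperones, 2 were listed: the methyltransferase Smyd1, which acts in thick filament assembly, at 2.02-fold (5.50 and 6.51) and Mybphl at 1.58-fold (4.87 and 5.53), both below the signal minimum. Around desmin 3 of 13 were listed. Synemin (Synm), an intermediate filament protein that assembles with desmin, was 1.58-fold higher (6.46 and 7.12), and Des was 1.70-fold higher. Both ratios lie near the median of the 800 named genes, 1.64-fold, so their closeness says nothing about the pair. Sgca, a sarcoglycan of the dystrophin complex at the fibre membrane, was 2.25-fold higher (5.19 and 6.36), from a probe below the signal minimum.

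Among kelch proteins and regulators of thin filament length, 6 of 11 were listed and 3 reached 2-fold. Klhl31, a muscle kelch protein related to Klhl41, had 2 probes that were 4.60-fold and 5.31-fold higher. Klhl41 was 3.96-fold and Klhl30 1.72-fold higher. Tropomodulins cap the pointed ends of actin filaments; Tmod4 was 3.85-fold (6.04 and 7.99) and Tmod1 2.07-fold higher (6.04 and 7.08). The leiomodins Lmod3 and Lmod2, which nucleate and lengthen actin filaments, were 1.94-fold and 1.91-fold higher. The probes of both leiomodins, Klhl31 and Klhl30 were below the signal minimum.

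**Figure D4:**
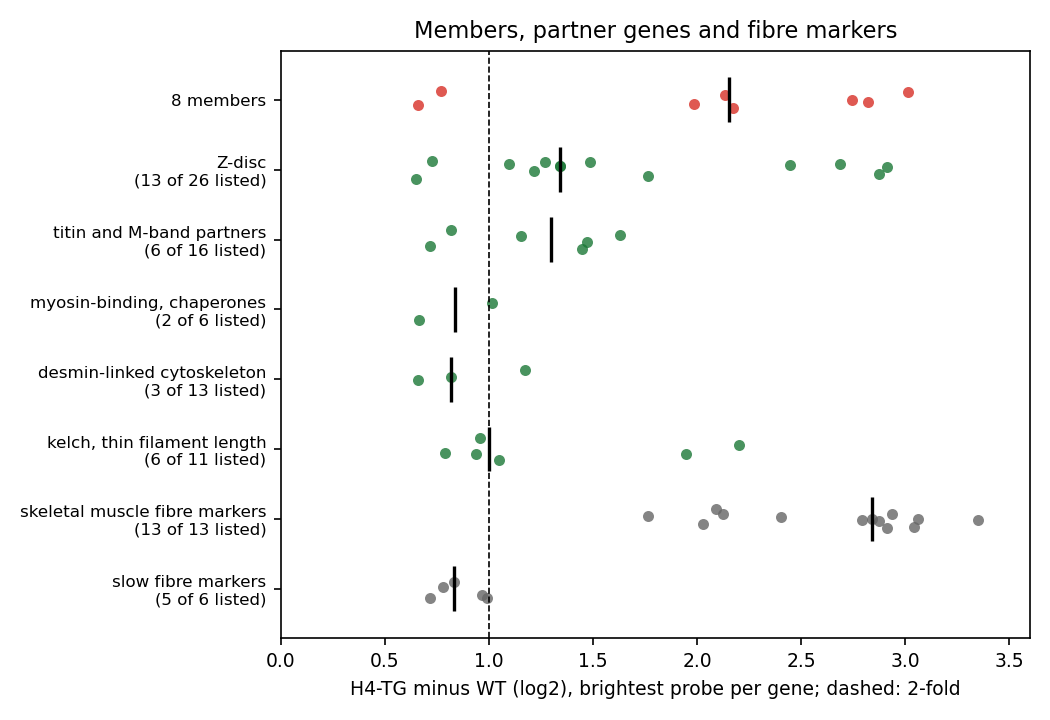
Difference between the H4-TG and WT arrays (log2, brightest probe per gene) for the 8 members, the 5 lists of partner genes and the fibre markers; each point is a gene, vertical bars are medians over the genes that the authors' table lists, and the dashed line is 2-fold. Genes that the table does not list have no point. The medians are 2.15 for the members, 2.84 for the markers of skeletal muscle fibres (mostly of fast fibres) and 0.83 for those of slow fibres.

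Markers of skeletal muscle fibres were higher in H4-TG like the members, in a direction that the authors' table fixes. Most genes on this list, Mylpf and Actn3 among them, belong to fast fibres, so it does not stand for all fibre types. All 13 of a list that included Acta1, Ckm, Tnnt3, Myh4, Pvalb and Actn3 were in the authors' table and at least 2-fold higher. They ranged from 3.39-fold for Myl1 to 10.2-fold for Pvalb, with a median log2 difference of 2.84. The share past 2-fold was 0.892% over all probes and 15% among the 800 named genes. The list was chosen with earlier results known, so its count is not read against these shares. Actn3 is also on the Z-disc list, and the Myh2 probe was below the signal minimum. The log2 of the summed linear signal of the 13 markers was 11.44 on WT and 14.02 on H4-TG. Slow fibre markers had 5 of 6 listed (Tnnt1 was not), none at 2-fold, with a range of 1.64-fold to 1.99-fold, all of them below the signal minimum; the log2 of their summed signal was 7.65 on WT and 8.50 on H4-TG. The difference of Mybpc1, 2.17, was above those of all 5 listed slow fibre markers, of which the highest was 0.99 for Myh7. Of 8 cardiac markers Nppb alone was listed, at 1.53-fold. Of 4 genes on the satellite cell list, Myod1 (1.59-fold) and Myog (1.57-fold) were in the authors' table. The other genes on it, Pax7 and Myf5, have no value here, so satellite cells could not be assessed. The probes of Nppb, Myod1 and Myog were below the signal minimum. None of 7 adipocyte, 5 fibroblast or 3 endothelial markers was in the table, so the labelled tissue could not be checked against its defining markers. Of 5 brown or beige fat markers Ucp1 was listed, at 2.60-fold. The part of muscle fibre RNA in the members' differences was not tested. In pooled bulk RNA, a larger number of cells of a type and more RNA per cell cannot be told apart, and genotype cannot be told apart from what else differed between the 2 pools.

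The named genes most like each member were found as the nearest of 792 other genes in the plane of both signals, a likeness that rests on 2 arrays. Nebulin was nearest to Ttn, at a distance of 0.22. Mylpf, a fast myosin light chain, was nearest to both Klhl41 (0.05) and Cmya5 (0.08). Myoz1 was nearest to Mybpc2 (0.48) and Myot (0.59), and the muscle phosphoglycerate mutase Pgam2 to Mybpc1 (0.28). The peroxisomal enzyme Ehhadh was nearest to Des (0.11), and Uggt2, an enzyme of glycoprotein folding, to Tcap (0.02). The differences of Des and Tcap lie close to the median of the named genes, 0.71, and the distance uses signals of different probes, so a neighbour says nothing about the kind of gene.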

How the data were processed

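Total RNA of inguinal white fat, pooled from 4 mice per genotype, was biotin-labelled for the mouse gene array 1.0, per the labels' protocols. The value table deposited by the authors gives log2 signals of all probes for 1 WT and 1 H4-TG array. The submitters' processing notes name MAS5; neither its settings nor the scaling between arrays is stated in the labels. A second table that the authors deposited covers 869 probes, with rounded log2 signals and, per the file headers, the linear fold of H4TG vs. CON; CON was taken as WT, and all signals lay within 0.005 of the value table.

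Symbols were updated through RefSeq genes of GRCm38 (746 of 822 rows with 1 symbol by accession, 46 by symbol, 10 by synonym, 20 unmatched). Differences are H4-TG minus WT, the brightest probe (mean of both arrays) stood for a gene, the threshold was 2-fold and the signal minimum 6.31. Named genes were all members, every partner gene with a value (a few are counted but not reported by name here) and the nearest gene to each member. The members and lists were chosen with earlier results of these data known. Alternatives were 3 scalings (median, quantile, lowess with span 0.3), the authors' rounded signals, the mean over probes, the signal minimum and a 1.5-fold threshold. The calculation was tested on simulated data. The number of arrays limits the precision. Python 3.11.15, numpy 2.4.6, pandas 2.3.3, statsmodels 0.14.6 and matplotlib 3.10.9 were used.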

Additional observations from a re-analysis of the deposited data

How the results depend on the processing

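Every named gene comes from a table of higher probes, so that none reversed is no sign of stability. As deposited the median over the 8 members was 2.15 and 6 were at least 2-fold higher; under the 3 scalings, the authors' rounded signals, the mean over probes and the signal minimum the median lay between 2.15 and 2.20 and the count was 6, whereas at 1.5-fold it was 8 by construction of the table. The difference of Ttn was 2.23 with the mean over its 3 probes, in place of 2.74, because the dim probe enters; the other 39 of 40 values of single members moved by at most 0.1. The median over the Ttn probes was 2.97 with the signal minimum, which leaves out the probe at 0.76. Probe 10484190 passed that minimum only through its H4-TG signal, so 2.97 is no check on the median. Of the 30 partner genes 20 reached 2-fold as deposited, 19 after centring along signal level, and all 30 reached 1.5-fold. With the signal minimum, 14 partner genes were left and 11 of them reached 2-fold. Several of these, such as Myoz1 and Actn2 (6.19 and 5.78 on WT), passed that minimum only through their H4-TG signal. The minimum therefore says nothing about the partners' count. Without replicates no value has an error. No paired analysis was possible because only 1 array was made per genotype, which also prevents leaving 1 out.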

Other observations

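Further scaffold and turnover genes of muscle, on none of the lists and chosen after their values were seen, were also in the authors' table. The small muscle protein Smpx was 2.76-fold higher in H4-TG (4.66 on WT and 6.12 on H4-TG), and the reticulon Rtn2, described in the table as associated with the Z-band, 2.29-fold (6.80 and 8.00). Of the myosin light chain kinases, Mylk4 was 6.01-fold (4.77 and 7.35) and the skeletal Mylk2 2.63-fold higher (5.99 and 7.39). The small heat shock proteins Hspb6 (2.02-fold), Hspb7 (1.93-fold) and Hspb8 (1.74-fold), chaperones that are abundant in muscle, were listed as well. Substrate adaptors of the Asb family of ubiquitin ligases were higher by 2.22-fold for Asb5, 2.02-fold for Asb14, 1.74-fold for Asb11 and 1.55-fold for Asb2. Kbtbd12, whose name in the table resembles that given for Klhl41, was 1.53-fold higher (4.17 and 4.78). The probes of Smpx, Mylk4, Hspb7, Asb5, Asb11, Asb14 and Kbtbd12 were below the signal minimum.

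Genes of developing muscle and regulators of muscle growth were also listed. The perinatal myosin Myh8 was 1.55-fold (5.56 and 6.19) and cardiac actin Actc1, which developing skeletal muscle also makes, 1.51-fold higher (6.28 and 6.87). The Myh8 probe was below the signal minimum and the Actc1 probe above it. The acetylcholine receptor subunit Chrna1 was 1.96-fold higher, the myogenic factor Myf6, which mature fibres keep, 2.19-fold higher, and myostatin (Mstn) read 4.71 on WT and 5.72 on H4-TG, all from probes below the signal minimum.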
